A study of Mus musculus with 16 samples.

Results

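The components of p38 MAPK signalling described here were 42 genes of the 54432 in the deposited bulk RNA-seq table of cultured mouse THY-1+ germ cells. They were taken by gene symbol from a list of the pathway that was chosen with earlier results of these data known: the 4 p38 kinases, the kinases and adaptors that activate them, the kinases, transcription factors and other proteins that they act on, and the phosphatases that switch them off. Each symbol stood on 1 line of the table. The germ cells came from THY-1-sorted testis cells of C57 LacZ pups and were grown between passages 9 and 12 on STO feeders, a mouse fibroblast line. The samples fell into 4 groups by treatment: 20 ng/mL FGF9, 1 ng/mL FGF9, 1 ng/mL FGF2 and no FGF. Per the methods, the cells were harvested after a week of treatment. All groups, the control included, received GDNF at 20 ng/mL with its receptor GFRA1 at 150 ng/mL, and the growth protocol of the labels adds FGF2 to the cultures before treatment.

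The labels list 4 biological replicates for each treatment, 16 samples in all, whereas the table points by its title to 12 libraries. For each gene the table gives 1 level, the mean normalized count over all libraries, beside the authors' own comparisons of each FGF treatment with no FGF, which were not used here. No value per library or per treatment was therefore analysed, and the depth of each library is unknown here. Every level below is the authors' mean over the 4 treatments together. No spread between libraries can be set beside it, and no difference between treatments was tested. Differences between genes are given as sizes only, and whether neighbours in an order differ beyond the spread between libraries cannot be said.

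The p38 MAPK pathway is a relay of kinases that answers stress, inflammatory cytokines and some growth factors. A MAP3K phosphorylates a MAP2K, the MAP2K phosphorylates a threonine and a tyrosine in the activation loop of p38, and active p38 phosphorylates transcription factors and further kinases, until dual-specificity phosphatases remove the phosphates. In the testis FGF9 and GDNF are signals to spermatogonial stem cells, the germ cells that renew themselves and feed spermatogenesis. Activity of the pathway is set by phosphorylation, which mRNA levels do not measure.

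All 42 genes reached a mean count of 10 and were taken as detected, against 32.6% of all genes in the table. The 42 are all protein-coding, and 14523 of the 19445 protein-coding genes with a mean above 0 were detected. Of the 42, 39 had a mean of at least 50 and 21 a mean of at least 1000. Of the 17755 detected genes in the table, 13714 and 6188 reached these marks. The means ran between 15.6 for Hspb1, a small heat shock protein, and 7566 for Mknk2, a kinase of the translation factor eIF4E, with a median of 1001. The median mean was 7.89 over the 36927 genes with a mean above 0 and 422 over the 17755 detected genes. A long transcript yields more fragments than a short one, so the mean describes each gene and its rank in the table, and distances between genes are given per kb, as the mean divided by the length of all exons of the gene. Per kb the members had a median of 232, and 28 of them lay at or above the 75th percentile of the genes with a mean above 0. So did 9219 of the 17755 detected genes and 8479 of the 19445 protein-coding genes with a mean above 0. The median percentile of the members per kb was 82.7 among all genes with a mean above 0. Among detected genes alone it was 64.0. The dot plot of the members by role shows all 42 means.

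**Figure D1:**
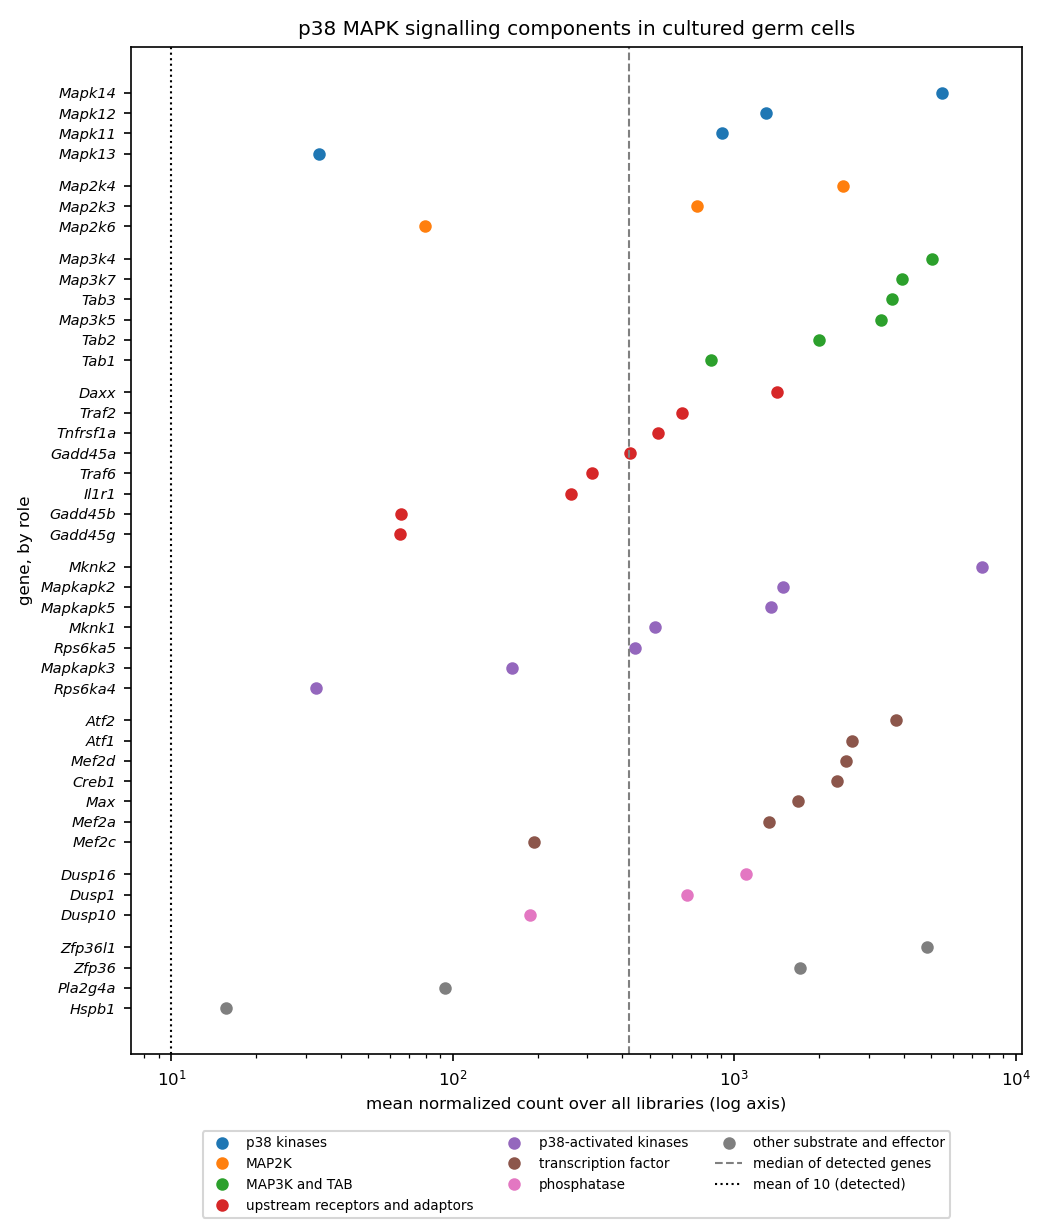
Mean normalized count over all libraries (x axis, log scale) of the 42 p38 MAPK signalling components, in rows by role and ordered within a role. Each point is 1 gene, the dotted line is the detection limit of 10, and the dashed line is the median of 422 over the detected genes. The MAP3K and TAB genes sit between 826 and 5054, all right of the dashed line, while the receptors and adaptors above p38 lie on both sides of it.

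Marker genes were read first, since the libraries could hold cells other than germ cells. All 9 markers of undifferentiated germ cells were detected, with means between 636 for Id4 and 47959 for Dazl and a median of 11535. Among 5 markers of later germ cells 3 were detected, Sycp3 with a mean of 1775.5, Kit with 686 and Stra8 with 50.3. The means of Sycp3 and Kit were thus above that of Id4. The spermatid genes Prm1 and Tnp1 had means of 0.0721 and 4.51. Of 10 fibroblast markers, 8 were detected, beside 14523 of the 19445 protein-coding genes with a mean above 0. The median of the 10 was 239. Fn1, at 10622, and Col1a1, at 2361, were the highest of the 10, and Acta2, at 8.64, and Lum, at 0.147, were the lowest. Thy1, at 65.7, was among the 8, but THY-1 is also the antigen by which the germ cells were sorted. Detected markers numbered 3 of 5 for Sertoli cells, 1 of 4 for Leydig cells and 2 of 4 for macrophages. The Sertoli markers ran between 2.55 for Amh and 424 for Sox9, the Leydig markers between 0 for Hsd3b1 and 78.8 for Star, and the macrophage markers between 0.188 for Adgre1 and 130.4 for Cd68. The germ cells had been blown off the feeders before RNA extraction, a step for which the methods cite a high germ cell purity. STO cells are mouse cells as well. RNA of germ cells and of carried-over feeder cells cannot be told apart in a mean over bulk libraries, nor can fewer cells of a type and less RNA per cell, and the part of feeder RNA in the levels of the p38 components was not tested.

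The 4 p38 kinases differed widely in level. Mapk14, which encodes p38-alpha, the isoform needed for mouse development, had a mean of 5446, above 97.0% of the genes with a mean above 0. Mapk12 (p38-gamma) had a mean of 1291 and Mapk11 (p38-beta) a mean of 901. Mapk13 (p38-delta) had a mean of 33.4. Per kb, Mapk14 stood at 1244, Mapk12 at 339, Mapk11 at 312 and Mapk13 at 10.6. Mapk14 thus made up 65.3% of the summed p38 level per kb, Mapk12 17.8%, Mapk11 16.4% and Mapk13 0.556%. The share of Mapk14 was 59.7% with the longest transcript as the length and 71.3% with the longest coding sequence, and the order of the 4 genes was the same with each of these lengths. The distance between Mapk14 and Mapk13 was 117-fold per kb of exons, 133-fold per kb of the longest transcript and 166-fold per kb of coding sequence. The closest neighbours in the order, Mapk12 and Mapk11, were 1.09-fold apart per kb of exons and 1.94-fold apart per kb of the longest transcript.

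These genes lie in 2 tandem pairs (GENCODE gene models on GRCm38). Mapk14 (ENSMUSG00000053436, chr17:28691329-28748406, plus strand) ends 20.9 kb before the start of Mapk13 (ENSMUSG00000004864, chr17:28769297-28780233, plus strand), so the highest and the lowest p38 gene are neighbours. Mapk12 (ENSMUSG00000022610, chr15:89130584-89140703) and Mapk11 (ENSMUSG00000053137, chr15:89142486-89149628) both lie on the minus strand with 1.78 kb between them. The 250 bases before the RefSeq start of Mapk14 and of Mapk13 (GRCm38.p6, plus strand, 5′ to 3′) are printed because this pair holds the widest difference among the p38 kinases. Capitals mark CpG, the dinucleotide at which DNA is methylated.
Mapk14, chr17:28691092-28691341: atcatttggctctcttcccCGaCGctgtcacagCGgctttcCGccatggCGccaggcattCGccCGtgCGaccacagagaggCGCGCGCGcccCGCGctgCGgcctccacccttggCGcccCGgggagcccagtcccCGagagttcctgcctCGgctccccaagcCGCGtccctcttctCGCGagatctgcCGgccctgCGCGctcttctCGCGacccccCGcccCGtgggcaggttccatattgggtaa
Mapk13, chr17:28769067-28769316: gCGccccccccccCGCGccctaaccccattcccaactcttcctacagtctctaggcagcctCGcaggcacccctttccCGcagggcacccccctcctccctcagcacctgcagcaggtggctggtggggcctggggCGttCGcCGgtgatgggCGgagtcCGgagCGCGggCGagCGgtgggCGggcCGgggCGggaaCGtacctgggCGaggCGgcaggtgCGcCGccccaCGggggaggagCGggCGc
The Mapk14 stretch holds 30 CpG and the Mapk13 stretch 25. The number of CpG divided by the number that its C and G content would give was 1.01 before Mapk14 and 0.693 before Mapk13. Both are thus above the mark of 0.6 that is commonly used for CpG islands, at levels per kb that differ 117-fold.

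Beside the JNK kinases, the other stress-activated MAP kinases, the p38 genes together reached 1906 per kb of exons. The JNK genes Mapk8, Mapk9 and Mapk10 summed to 713 per kb, and the p38 sum was 2.67 times theirs. It was 2.11 times theirs per kb of the longest transcript and 1.41 times per kb of coding sequence. In the p38 group a single gene, Mapk14, carried 65.3% of the sum, as the stacked bars show, whereas in the JNK group Mapk9 held 50.4% and Mapk8 43.8%. Mapk8 and Mapk9 changed places with the length used.

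**Figure D2:**
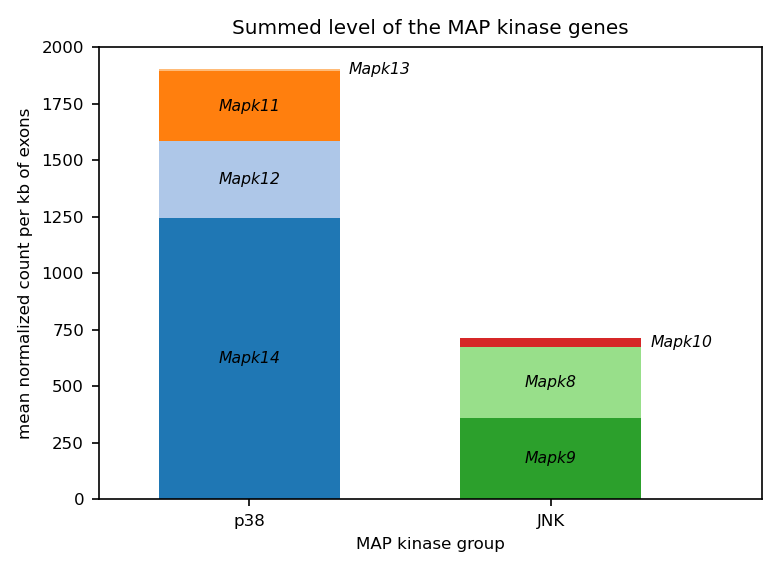
Summed level of the genes of the p38 and JNK groups (y axis, mean normalized count per kb of exons), with 1 segment for each gene. The p38 bar ends at 1906 and the JNK bar at 713, and the Mapk13 segment of 10.6 is barely visible at the top of the p38 bar.

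Among the MAP2Ks, Map2k3 and Map2k6 encode MKK3 and MKK6, which are specific to p38, and Map2k4 encodes MKK4, which acts on both JNK and p38. Map2k4 had the highest level, with a mean of 2429 and 521 per kb. Map2k3 had a mean of 739 and 223 per kb, and Map2k6 a mean of 79.4 and 23.1 per kb. Map2k3 therefore stood above Map2k6 among the p38-specific kinases, and Map2k6 made up 3.01% of the summed level per kb of the 3 genes. The order was the same with each of the 3 lengths.

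The MAP3Ks and their adaptors were the members with the highest median, 3467 by mean and 521 per kb. Map3k4 (MEKK4, which GADD45 proteins activate) had a mean of 5054, Map3k7 (TAK1, which answers TGF-β and interleukin-1) a mean of 3945, and Map3k5 (ASK1, which answers oxidative stress) a mean of 3314. Per kb of exons these were 496, 614 and 545, within 1.24-fold of each other, whereas per kb of coding sequence Map3k7 was 2.06-fold above Map3k4 and 2.71-fold above Map3k5. Their order depended on the length used: Map3k7 was first per kb of exons and of coding sequence, and Map3k4 per kb of the longest transcript. The adaptors of TAK1 followed the order Tab3, Tab2 and Tab1 with each length. Tab3 had 545 per kb, Tab2 327 per kb and Tab1, whose product can also bind p38-alpha directly, 246 per kb. Of the 13 other MAP3K and MAP2K genes listed for comparison, all were detected, with a median mean of 2305 and a range from 89.8 for Map3k6 to 6330 for Taok1.

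The receptors and adaptors above these kinases had lower levels, with a median mean of 369 over 8 genes and a median of 91.2 per kb, and 1 of them had a mean of at least 1000. Daxx, a nuclear protein that can activate ASK1, was that gene, with 1421, or 451 per kb. The adaptors of the TNF and interleukin-1 receptors followed, Traf2 with a mean of 649 (127 per kb) and Traf6 with 312 (39.6 per kb). The receptors themselves had means of 535 (206 per kb) for Tnfrsf1a, the main TNF receptor, and 263 (41.3 per kb) for Il1r1, the signalling receptor of interleukin-1. Of the 14 ligands, receptors and switches listed beside them, 11 were detected, and the 3 that were not were the cytokine genes Tnf, Il1a and Il1b, with means of 0.156, 0.083 and 0. The cultures thus carried mRNA for both receptors, and these ligands had means under 1. Gadd45a, Gadd45b and Gadd45g, stress-induced activators of MEKK4, had means of 425, 65.6 and 64.7, and Gadd45a made up 71.4% of their summed level per kb of exons, first of the 3 with every length.

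Of the kinases that p38 activates, 7 were members, in the MNK, MAPKAP and MSK families. Mknk2 (MNK2) had a mean of 7566 and 1944 per kb, both the highest of all 42 genes, against 523 and 116 per kb for Mknk1 (MNK1). Mknk2 was 16.7-fold above Mknk1 per kb of exons, 10.8-fold per kb of the longest transcript and 13.1-fold per kb of coding sequence. Mapkapk2 (MK2, which controls the stability of cytokine mRNA) had a mean of 1484 and 488 per kb, Mapkapk5 (MK5) a mean of 1344 and 421 per kb, and Mapkapk3 (MK3) a mean of 162 and 29.2 per kb. The order of Mapkapk2 and Mapkapk5 turned round with the length of the longest transcript. Of the Mapkapk5 exons, 56.5% are shared on the same strand with the gene model of Adam1a (mean 31.6) and 56.4% with that of Gm42878 (mean 20.6), so its count is uncertain by what the counting assigned to those models. The MSK kinases, which phosphorylate CREB and histone H3, were low. Rps6ka5 (MSK1) had a mean of 444 and 37.2 per kb, and Rps6ka4 (MSK2) a mean of 32.6 and 9.07 per kb, the lowest level per kb of the members. A further gene model that the table also describes as Rps6ka4 (CAAA01066123.1, mean 14.6) covers 18.2% of the Rps6ka4 exons on the same strand, and the level of Rps6ka4 is uncertain for that reason. The MSK genes were 4.10-fold apart per kb of exons and 12.2-fold apart per kb of coding sequence.

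**Figure D3:**
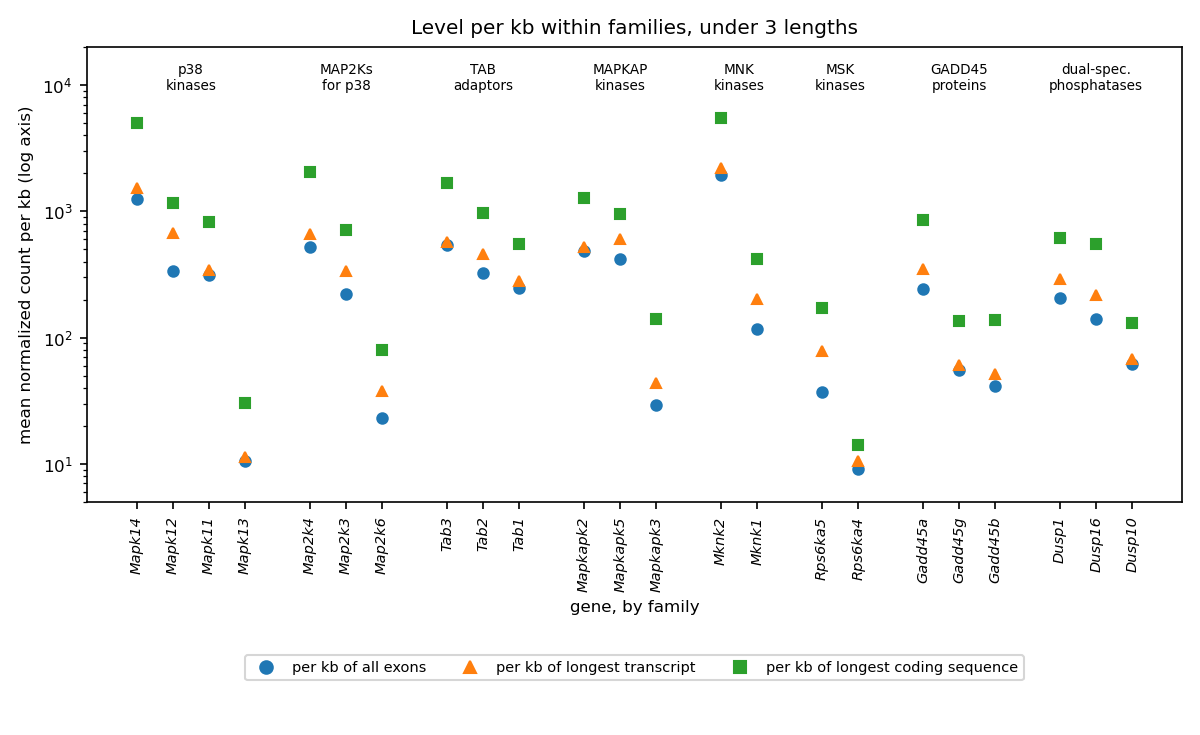
Level of each member (y axis, mean normalized count per kb, log scale) in 8 families of the pathway, with the length taken from all exons (circles), the longest transcript (triangles) or the longest coding sequence (squares). Mapk13, Map2k6, Mapkapk3, Mknk1 and Rps6ka4 lie below the other genes of their families with every length, while Mapkapk2 and Mapkapk5 change places.

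The transcription factors had a median mean of 2308 and a median of 415 per kb, and 6 of the 7 had a mean above 1000. Atf2, a classical p38 substrate, had a mean of 3748 and 458 per kb. Atf1 and Creb1, related factors that MSK kinases phosphorylate, had means of 2621 and 2308, or 857 and 168 per kb. Atf1 was thus 5.10-fold above Creb1 per kb of exons, and 1.44-fold per kb of coding sequence. Max, the dimer partner of MYC, had a mean of 1676 and 466 per kb, whereas Myc itself had a mean of 204 and 75.2 per kb. Of the MEF2 factors, which p38 activates in muscle, Mef2d had a mean of 2483 (415 per kb), Mef2a of 1323 (90.1 per kb) and Mef2c of 195 (12.4 per kb). The paralog Mef2b, which is not among the 42, had 438 per kb of exons. Mef2b was first per kb of exons, and it stood below both Mef2d and Mef2a per kb of coding sequence. Mef2a was 4.85-fold below the first gene per kb of exons and 1.82-fold per kb of coding sequence, and Mef2c was the lowest of the 4 with each length. The exon lengths of Mef2a and Mef2c, 14.7 and 15.7 kb, are the longest with Creb1, at 13.7 kb, among the members.

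The 3 phosphatases that act on p38 had a median of 141 per kb. Dusp16 (MKP-7) had a mean of 1101 and 141 per kb, Dusp1 (MKP-1, an immediate early gene) a mean of 677 and 205 per kb, and Dusp10 (MKP-5) a mean of 189 and 62.0 per kb. Dusp1 was first and Dusp10 last per kb with each length. All 8 other phosphatases listed for comparison were detected, between 54.4 for Dusp2 and 3854 for Dusp9. Among the 41 members with a promoter window, only Dusp1 had a full cAMP response element (CRE), the palindrome that CREB and ATF factors bind. The full CRE was in 1.85% of member windows and in 1.79% of all windows, so the members were near the share over all. The 250 bases before the RefSeq start of Dusp1 (GRCm38.p6, minus strand, 5′ to 3′) are printed with TGACGTCA in capitals.
Dusp1, chr17:26508473-26508722: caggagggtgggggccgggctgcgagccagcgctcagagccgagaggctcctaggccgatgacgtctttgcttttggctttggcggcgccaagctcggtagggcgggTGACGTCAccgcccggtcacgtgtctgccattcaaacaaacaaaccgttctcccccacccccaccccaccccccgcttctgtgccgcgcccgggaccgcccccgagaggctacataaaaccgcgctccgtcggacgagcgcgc
The element spans bases 143 to 136 before the start. The shorter core TGACG lies within it on both strands and once more at bases 191 to 187 before the start. The gene model used for the exon length of Dusp1 runs over chr17:26505590-26562128 on the minus strand. The RefSeq start thus lies inside that model and not at its 5′ end.

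The remaining members are substrates and effectors further down. Zfp36l1 and Zfp36, RNA-binding proteins that destabilise AU-rich mRNAs and that MK2 phosphorylates, had means of 4824 and 1708, or 1613 and 492 per kb. Zfp36l1 was second of all members per kb, and its paralog Zfp36l2, not among the 42, stood beside it at 1555 per kb. On the opposite strand, 55.9% of the Zfp36l1 exons are covered by Gm26669 (mean 32.7), and a processed pseudogene, Zfp36l1-ps, had a mean of 13.5. Pla2g4a, the cytosolic phospholipase that releases arachidonic acid, had a mean of 93.9 and 14.7 per kb. Hspb1, the mouse HSP27 and the best known target of MK2, had a mean of 15.6 and 15.1 per kb. Hspb1 is also the shortest member, with 1.03 kb of exons, and was 38th of the 42 per kb of exons. Per kb of the longest transcript only Mapk13 and Rps6ka4 were lower, and per kb of coding sequence only Rps6ka4. Mapkapk2, the gene of the kinase MK2, stood at 488 per kb of exons.

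Opposite-strand genes overlap the exons of further members, among them E230016M11Rik over 19.1% of Gadd45a, 1700113A16Rik over 8.87% of Mef2d and Lysmd4 over 2.06% of Mef2a, with means of 63.5, 74.5 and 309. The library kit keeps strand, but no source read here says whether the counting used it.

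RefSeq promoter windows, from 250 bases before to 50 after a start, were found for 41 of the 42 genes, in 54 windows (GRCm38.p6). Their median CpG number was 24, against 7 over all 32851 windows of 27025 genes. The ratio of observed CpG to that given by base content was at least 0.6 in 70.4% of the member windows and in 35.8% of all windows. The members are all detected and protein-coding, whereas all windows were not limited to such genes, and a comparison limited in this way was not made. The ratio was below 0.6 in every window of 7 genes, Gadd45a, Hspb1, Il1r1, Mapk12, Mapkapk3, Pla2g4a and Tnfrsf1a. These 7 had a median of 41.3 per kb of exons, with a range between 14.7 and 339, against a median of 319.6 per kb in the 34 genes with a window at or above 0.6. The ranges of both sets overlap, since Rps6ka4, at 9.07 per kb, is in the second. Motifs were searched by their letters on both strands. The core of the CRE, TGACG, was in 35.2% of member windows against 20.8% of all, and the full CRE, TGACGTCA, in 1.85% against 1.79%. Both hold a CpG, and the member windows are richer in CpG than all windows. Whether the share of TGACG goes beyond what CpG content gives was not tested. TGANTCA, a loose form of the AP-1 site with any base at N, was in 7.41% against 7.81%. CCAAT was in 33.3% against 37.4%, and TATAAA in 14.8% against 13.6%. The 4 genes with TGANTCA were Map2k6, Mef2c, Rps6ka4 and Zfp36l1. TGACG is part of TGACGTCA, and windows of 1 gene can overlap, so these shares are descriptions of the printed letters and not of binding.

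Beside the members, 63 other entries of the pathway were listed, with Ddit3 on 2 lines, of which 59 were detected. Per kb of exons the median was 232 in the members and 281 in the other pathway genes, and the median percentile was 82.7 in the members and 84.8 in the others. Among the 8 groups of members by role, the MAP3K and TAB genes lay highest by median percentile per kb, at 91.1, and the receptors and adaptors lowest, at 73.2, which is close to the 72.4 of the 7 FGF receptors and their docking proteins. Among the receptors, Fgfr1 had a mean of 2791 (283 per kb), Fgfr3 of 219 (30.7 per kb), Fgfr2 of 178 (17.3 per kb) and Fgfr4 of 34.8 (9.84 per kb). In the plot of percentiles by list no member lies below the median of the genes with a mean above 0. This follows from detection, since that median was 7.89 and every member had a mean of at least 10.

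**Figure D4:**
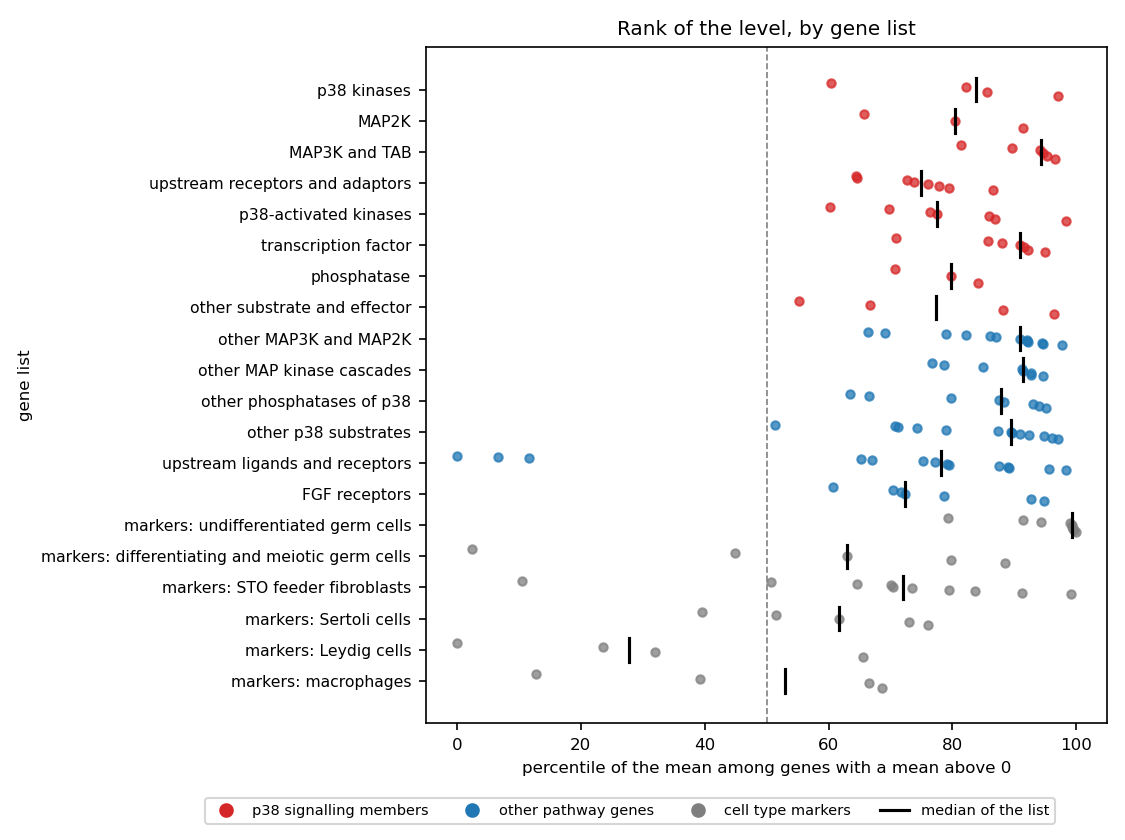
Percentile of the mean normalized count among the 36927 genes with a mean above 0 (x axis, not scaled by length), with 1 row for each gene list and 1 point for each gene. Red points are the p38 components, blue points other pathway genes and grey points cell type markers, black bars are list medians and the dashed line is the 50th percentile. All 42 red points lie right of the dashed line, whereas 3 cytokine genes lie far left of it.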

How the data were processed

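Bulk RNA-seq of cultured THY-1+ germ cells was analysed. Per the methods and labels, stranded mRNA libraries were mapped to GRCm38 and the treatments compared by the authors with DESeq2, and the submitters' processing notes also name STAR and Salmon, without versions. The deposited table holds 54432 genes. Its measurement is 1 normalized mean per gene, a signal scaled by the authors for library size and pooled over treatments, which was the same in the columns of all 3 comparisons. It also holds the authors' log2 fold changes, standard errors, test statistics and p-values, which were not used. The fits with edgeR planned between treatments need values per library and could not be made, and group labels entered no calculation.

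Gene IDs were matched to GENCODE gene models (GRCm38), 54346 of 54432 without and 54050 with the version number. Levels per kb were the mean divided by the length of all exons. Percentiles give the share of the 36927 genes with a mean above 0 that lay below, and 17505 genes were at 0. Detection was set at a mean of 10. Every member is reported, grouped by role. Other listed genes are given by counts and named where highest or lowest of their list or a paralog of a member. Fgfr1 to Fgfr4, Myc, the undetected cytokines, single markers and overlapping genes were named after their values were seen. 1 listed gene is not reported here. Members and lists were chosen with earlier results of these data known. Python 3.11.15, pandas 2.3.3 and scipy 1.17.1 were used, and the percentile and length calculations were tested on simulated data.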

Additional observations from a re-analysis of the deposited data

How the results depend on the processing

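The median percentile of the p38 components depended on the genes they were ranked among. By mean count it was 83.2 among genes with a mean above 0, 65.0 among detected genes and 68.8 among protein-coding genes. Per kb it was 82.7, 64.0 among detected genes, and 70.1 with the longest coding length, where only genes that code for protein are ranked. With the longest transcript, 82.9, it hardly moved. The longest transcript and the coding length of the gene models were chosen after seeing the data, the latter in place of a planned protein table that was not used here. At a detection limit of 50 in place of 10, 39 of 42 members were detected. Over 13 families, 9 had the same highest gene and 8 the same full order with each of the 3 lengths.

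No paired analysis was possible because the levels are pooled over all libraries. For the same reason the planned fits between treatments, with TMM or DESeq2 size factors, with or without a filter, with a replicate block and with each replicate left out, were not run. The depth of each library and the spread between libraries are unknown here, so the precision of the lowest levels, such as those of Hspb1, Rps6ka4 and Mapk13, cannot be given.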
